A study of Mus musculus with 24 samples.

Results

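Mouse embryonic stem cells of the E14 line that lacked AGO2 were compared with wild-type (WT) cells of that line after both had been taken through a protocol towards extraembryonic endoderm (XEN). The comparison comprised 4 libraries of the 24 samples in the series. Knockout (KO) libraries came from clones C4 and 5-3, with 1 library per clone, and the WT libraries are called A and B. They were chosen by the column names of the deposited table, which give the genotype, the clone and the stage, and all 43629 Ensembl genes of that table were considered. The genotype was the only difference the labels gave between the groups. All cells had a 129/Ola background. The protocol in the labels was 5 days in RPMI medium with 15% serum, 0.1 µM all-trans retinoic acid and 10 ng/mL activin A. The labels list no LIF for that medium. They give the same protocol for samples taken on single days of the course, and no day of harvest for the 4 libraries used here. How the AGO2 gene was disrupted, and whether the WT libraries were separate cultures, was not given in the sources used here. A difference seen in 1 clone may belong to that clone, and the p-values reflect no more than the spread among the 4 libraries.

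Argonaute proteins hold a small RNA and use it to find matching messenger RNAs. AGO2 is the family member that can cut its target, and with AGO1, AGO3 and AGO4 it also carries microRNAs that lower the stability and translation of messages matched by the microRNA seed. XEN cells are the cultured counterpart of the primitive endoderm, the layer of the blastocyst that lines the yolk sac and depends on the transcription factors GATA6, GATA4, SOX17 and SOX7.

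Total counts were 36427340 and 38595537 in WT libraries A and B, 13941826 in clone C4 and 33389566 in clone 5-3. Levels are given as CPM, the count scaled by the size of the library, for which 3 counts correspond to 0.0817, 0.0819, 0.205 and 0.0903 CPM in that order. Clone C4, the shallowest library, is therefore the least precise at low levels. Libraries of each group differed by more than sampling noise and were kept apart as 2 replicates (chi-square per degree of freedom 103 in WT and 45.5 in KO). Mitochondrial genes took 1.94 and 2.64% of the counts in WT, 0.781% in C4 and 0.979% in 5-3, and the part of this in the differences below was not tested.

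Ago2 itself (chr15:73095844-73184935, minus strand) was measured at 391 and 427 CPM in WT libraries A and B, 115 CPM in clone C4 and 9.72 CPM in clone 5-3. Both clones lay below both WT libraries, as they did for 40.5% of all genes tested (both lay above for 39%), and clone C4 kept more than 10 times the level of clone 5-3. The log2 fold change of KO over WT (log2 FC, with its standard error after ±) was -2.72 ± 1.04 and did not pass the quasi-likelihood test of edgeR at an adjusted p below 0.05 (adjusted p = 0.0808). Either clone alone passed against WT, with a log2 FC of -1.82 (adjusted p = 0.0179) for C4 and -5.37 (adjusted p = 0.0135) for 5-3. Counts per gene leave unsaid which exons the remaining reads came from. Exons of Ago2 overlap those of Chrac1 on the opposite strand, and the strand setting of the counting was not given in the sources used here.

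The other Argonaute genes showed no common rise. Ago1 stood at 68.8 and 62.7 CPM in WT, 78.6 in C4 and 94.1 in 5-3 (log2 FC 0.39 ± 0.17, adjusted p = 0.113). Both KO values of Ago1 were above both WT values, but the difference did not pass. Ago3 fell, from 27.2 and 41.5 CPM in WT to 13.8 and 10.8 CPM in C4 and 5-3 (log2 FC -1.49 ± 0.29, adjusted p = 0.011). That call was lost without clone 5-3 (adjusted p = 0.0699) and with an offset for the GC content of transcripts, which is described with the counts over all genes (log2 FC -0.67, adjusted p = 0.0591). Ago4 stood at 4.55 and 9.80 CPM in WT, 3.63 in C4 and 3.46 in 5-3 (log2 FC -1.02 ± 0.44, adjusted p = 0.11) and passed only without WT library A (adjusted p = 0.0254). Among 19 further genes of microRNA processing and silencing, 2 rose and 7 fell, against 22.1% higher and 24.9% lower over all genes tested. Tnrc6b, which encodes a scaffold that Argonautes recruit, rose by 1.17 ± 0.19 on the log2 scale (adjusted p = 0.00668). Hsp90aa1, an HSP90 chaperone that helps load Argonautes, fell (log2 FC -2.01 ± 0.19, adjusted p = 0.00249), as did Cnot1, the scaffold of the CCR4-NOT deadenylase (log2 FC -1.24 ± 0.22, adjusted p = 0.00835), whose call was lost without clone C4 (adjusted p = 0.0621). With the GC offset 3 genes of that list rose and 3 fell, while over all genes tested it called 23.4% higher and 21.6% lower.

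**Figure D1:**
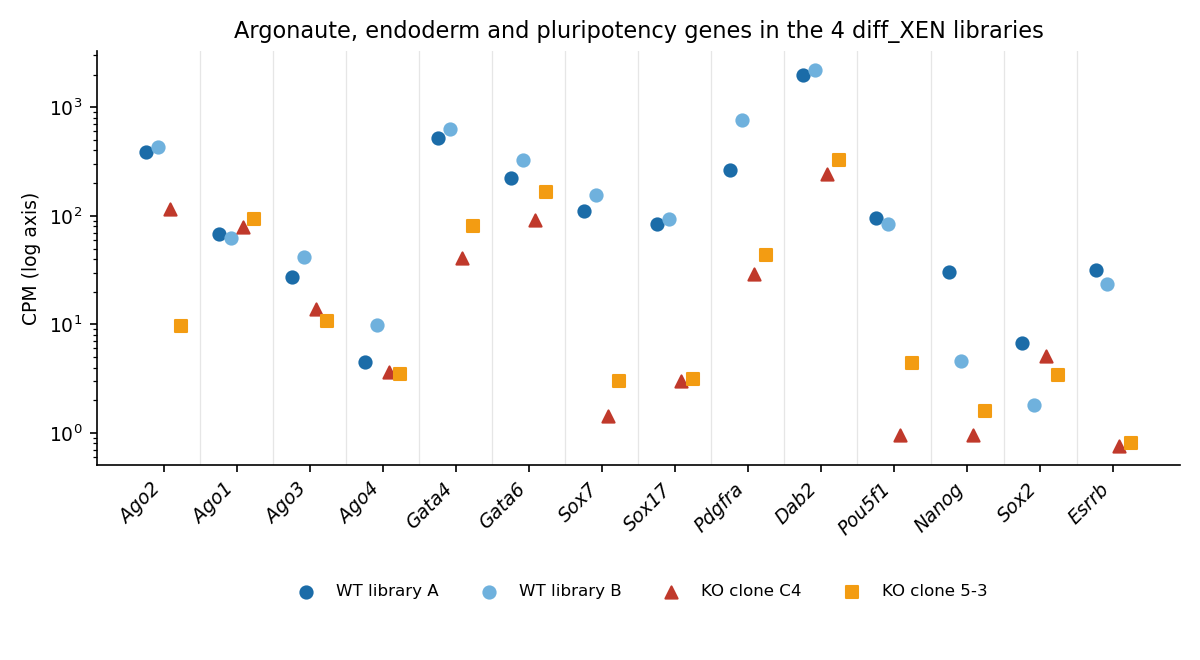
CPM of 14 genes in each of the 4 libraries, on a log axis. Circles are the WT libraries, triangles clone C4 and squares clone 5-3. Ago2 lies lower in both clones but at 115 CPM in C4 and 9.72 CPM in 5-3, whereas Sox17 and Esrrb lie close together in the clones and far below WT.

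AGO2 acts through the microRNAs it carries, and the most abundant family in mouse embryonic stem cells is that of the miR-290 and miR-302 clusters. The sequences of 4 members are shown with their seed (bases 2 to 8) in capitals, since they all have the same seed and so the same target word. The mature sequences are from RefSeq (GRCm38.p6), 5′ to 3′.
mmu-miR-291a-3p: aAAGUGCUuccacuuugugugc
mmu-miR-294-3p: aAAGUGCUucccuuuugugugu
mmu-miR-295-3p: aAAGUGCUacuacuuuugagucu
mmu-miR-302b-3p: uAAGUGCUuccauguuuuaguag
A messenger matches that seed where its 3′ untranslated region (UTR) holds the word AGCACTT. Of 18 genes reported as targets of the family and tested, 9 rose and 3 fell, with a median log2 fold change of 0.81, against 22.1% higher, 24.9% lower and a median of -0.02 over all 16671 genes tested. Cdkn1a, the cyclin-dependent kinase inhibitor p21, was measured at 197 and 121 CPM in WT, 979.9 in C4 and 827 in 5-3 (log2 FC 2.503 ± 0.29, adjusted p = 0.00334). Lats2, a kinase of the Hippo pathway, was measured at 28.9 and 23.4 CPM in WT, 110.2 in C4 and 84.5 in 5-3 (log2 FC 1.89 ± 0.22, adjusted p = 0.00333). Both clones were above both WT libraries for Cdkn1a and Lats2.

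The places where the seed could pair are shown for the UTRs of 5 of these targets, all of them called higher. Matches in Wee1, Lefty1, Lefty2, Mbd2 and Tgfbr2, which did not pass, are not shown, and Tgfbr2 held 3. Rbl2, Ei24 and Akt1, also called higher and with 1 match each, are not shown either. The matching word is in capitals, with coordinates of that word in GRCm38 (GENCODE vM21 transcripts).
Cdkn1a, chr17:29099828-29099834, plus strand: agacctgaatAGCACTTtggaaaaatgagt
Cdkn1a, chr17:29100500-29100506, plus strand: tgggtgtcaaAGCACTTagtgggtctgact
Lats2, chr14:57691087-57691093, minus strand: gtatggaaagAGCACTTattttgtggatac
Lats2, chr14:57690988-57690994, minus strand: tgtatctgatAGCACTTgtccacagctaga
Irf2, chr8:46846664-46846670, plus strand: cttatcttgaAGCACTTacaataggccttc
Rhoc, chr3:104794331-104794337, plus strand: attacacaccAGCACTTtatatatttttgg
Casp2, chr6:42281558-42281564, plus strand: ataacctagaAGCACTTgtctctgctctta
Irf2, an interferon regulatory factor, rose from 7.21 and 6.25 CPM in WT to 28.4 and 18.99 CPM in C4 and 5-3 (log2 FC 1.81 ± 0.28, adjusted p = 0.00625). Rhoc, a small GTPase of the cytoskeleton, rose from 217 and 174 CPM in WT to 558 and 545 CPM in C4 and 5-3 (log2 FC 1.496 ± 0.18, adjusted p = 0.00371), and Casp2, an apoptotic protease, from 36.4 and 38.6 CPM in WT to 62.7 and 85.6 CPM in C4 and 5-3 (log2 FC 0.98 ± 0.21, adjusted p = 0.0143). The call of Casp2 was lost without clone 5-3 (adjusted p = 0.0782). Of the 13 reported targets whose UTR held the word, 8 rose, none fell and 5 did not pass. Of the 5 without it, 1 rose, 3 fell and 1 did not pass. Over all genes tested 22.1% were higher and 24.9% lower. This split by the word rests on few genes and was made after the values had been seen. Dkk1, a secreted WNT inhibitor and a reported target, had no match in the UTR used and fell from 81.1 and 37.8 CPM in WT to 1.03 and 2.17 CPM in C4 and 5-3 (log2 FC -5.14 ± 0.55, adjusted p = 0.00297).

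Across all protein-coding genes tested the word did not mark a general rise. Among 2149 genes with 1 or more matches 22.6% were higher and 28.6% lower, with a median of -0.07. Among the 11924 genes without a match 24.7% were higher and 25.4% lower, with a median of 0.01. With the GC offset the shares were 28.6% higher and 20.1% lower with a match, and 25.0% and 23.4% without. In the longest of 3 equal bins of UTR length, however, 30.0% were higher and 19.4% lower with a match, and 30.5% and 21.2% without, again with the offset. Seeds of some other families gave like shares over all UTRs with the offset. These were 30.1% higher and 19.6% lower with a match to miR-21 (ATAAGCT), 29.8% and 21.3% for miR-17/20 (GCACTTT) and 29.2% and 22.5% for miR-200b (CAGTATT). Higher and lower shares lay closer together for let-7 (CTACCTC), at 27.1% and 23.9%, and for miR-196 (ACTACCT), at 25.3% and 24.5%. The UTRs differed in length, with a median of 2401 bases with a match and 801 bases without, so the groups are not alike in other respects. A match is a word in a sequence and not a measured site, microRNA levels were not measured in these libraries, and the search was chosen after gene values had been seen. Of 20 reported let-7 targets tested, 5 rose and 6 fell, with a median of -0.05. Over all genes tested 22.1% were higher and 24.9% lower. Lin28a, an RNA-binding protein of stem cells that blocks let-7 maturation, was at 158 and 283 CPM in WT, 16.2 in C4 and 7.58 in 5-3 (log2 FC -4.23 ± 0.50, adjusted p = 0.00346), whereas its paralogue Lin28b was at 2.83 and 2.18 CPM in WT, 22.7 in C4 and 13.4 in 5-3 (log2 FC 2.84 ± 0.37, adjusted p = 0.00404). Lin28a fell and Lin28b rose in both clones.

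Of 16671 genes with enough counts to be tested, 7835 (47%) were called at an adjusted p below 0.05, 3685 (22.1%) higher and 4150 (24.9%) lower in KO. At least 2-fold changes were called for 2873 higher and 3317 lower genes, and at least 8-fold changes for 686 higher and 813 lower genes. Without the other clone, 4180 genes were called for clone C4 (24.1% of 17359 tested) and 4280 for clone 5-3 (24.5% of 17471 tested). Without WT library B 5096 genes were called. With so many calls the count of any gene group is to be read against these shares. Genes differed by a median of 0.25 between the clones and 0.32 between the WT libraries, in absolute log2 units, against 0.87 between KO and WT.

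**Figure D2:**
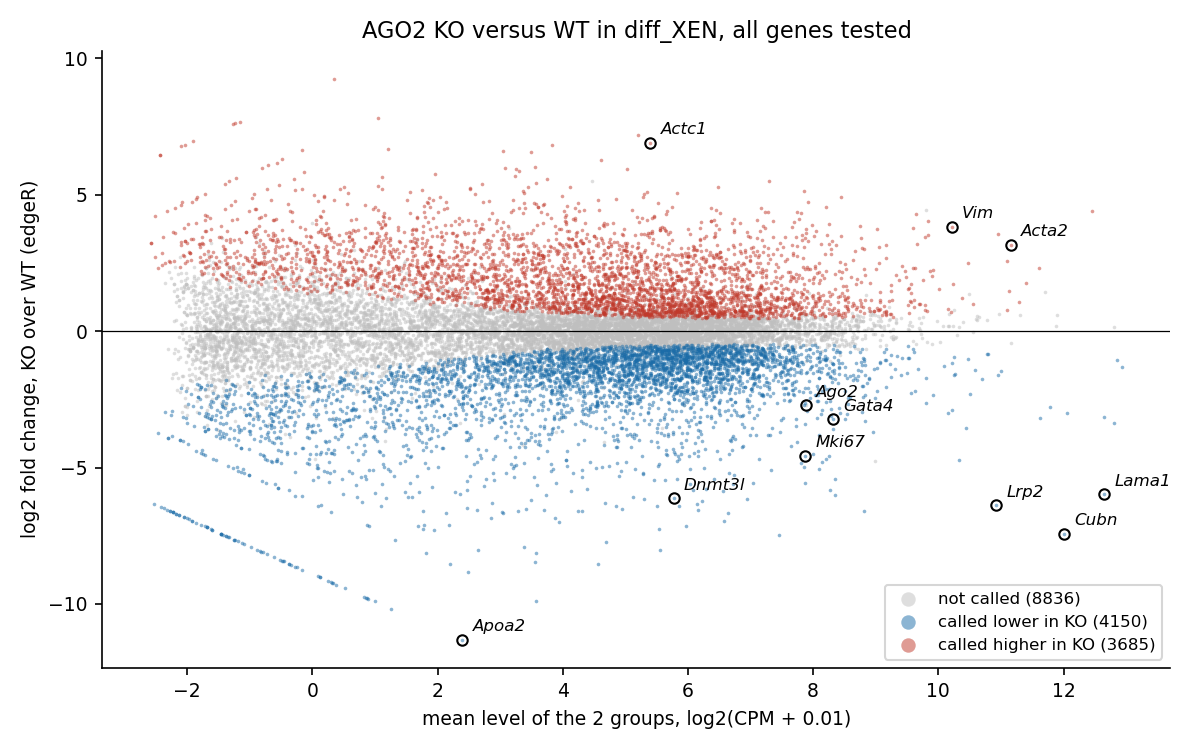
Log2 fold change of KO over WT against the mean level, for all 16671 genes tested, with genes called higher in red (3685), called lower in blue (4150) and not called in grey. Cubn, Lrp2 and Lama1 lie at high levels and far below 0, Vim and Acta2 at high levels and above it, and Apoa2, with no count in KO, at the lower edge.

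The fold changes varied with base composition. In the bin with the lowest GC of 5 equal bins (29.6 to 44.0% GC of the longest transcript, 3313 genes) 8.69% of genes were higher and 47.7% lower, with a median of -0.85. In the bin with the highest GC (55.5 to 73.7%) 37.1% were higher and 10.5% lower, with a median of 0.52. The clones went together in this, with medians of -0.85 and -0.81 in the lowest bin and 0.51 and 0.54 in the highest. WT libraries A and B also differed along GC, by -0.30 in the lowest and 0.26 in the highest bin, while the difference between the clones stayed between -0.10 and -0.04. The fit was therefore repeated with an offset for GC in each library, chosen after this was seen. It called 7502 genes (45%), 3899 higher and 3603 lower, and kept 6015 of the 7835 calls in their direction. The offset also changed sizes, both ways. In the bin with the lowest GC, Hsp90b1 went from -2.33 to -1.55, Tfpi from -3.22 to -2.22 and Dcx from 4.51 to 5.40. In the bin with the highest GC, Col4a2 went from -2.79 to -3.56 and Smad6 from 3.25 to 2.54. Fold changes are given without the offset unless stated. The count of a list with the offset is given where the number higher or the number lower differed by 2 or more genes. Some genes, such as Cubn, are members of more than 1 list.

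**Figure D3:**
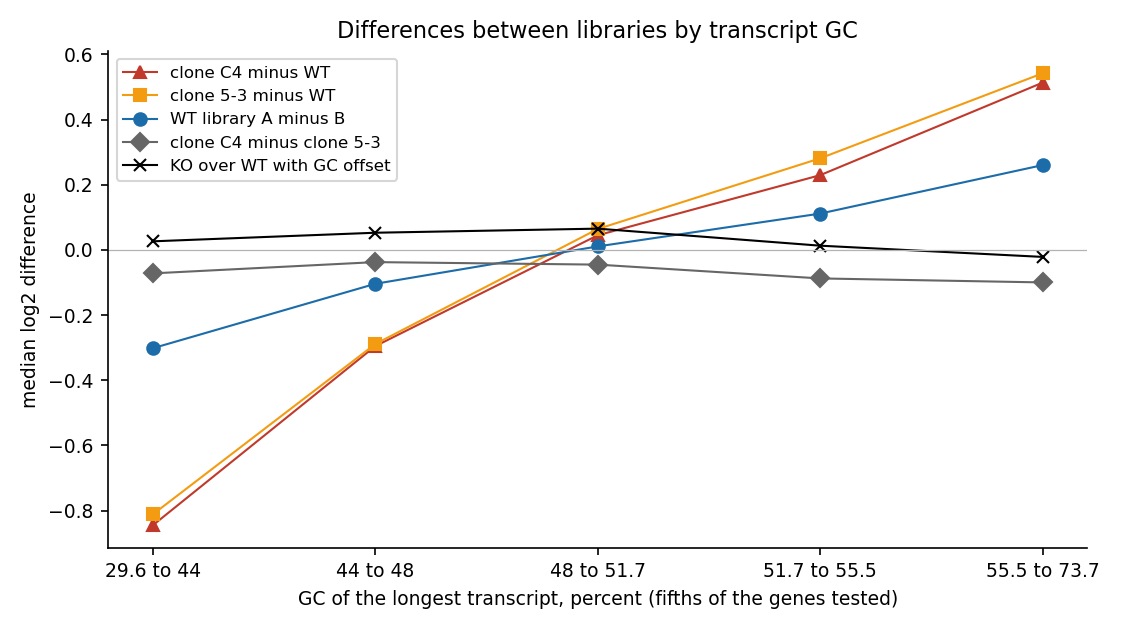
Median log2 difference between libraries in 5 bins of transcript GC with 3313 genes each. The lines of both clones against WT run from about -0.8 to 0.5, the line of the WT libraries against each other has the same direction at a smaller size, and the line with the GC offset stays near 0.

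The genes that define primitive endoderm were lower in KO. Of 21 tested members of that list, 19 fell and none rose, with a median log2 fold change of -3.27 against -0.02 over all genes. In the bulk RNA of a culture, fewer cells of a type and less RNA per cell cannot be told apart. Gata4 (chr14:63198922-63271692, minus strand), the zinc finger factor that acts early in endoderm, was at 517 and 636 CPM in WT libraries A and B, 40.95 CPM in clone C4 and 81.2 CPM in clone 5-3 (log2 FC -3.24 ± 0.37, adjusted p = 0.00334). Sox17 (chr1:4490931-4497354, minus strand) was at 84.8 and 94.4 CPM in WT, 3.01 in C4 and 3.16 in 5-3 (log2 FC -4.85 ± 0.20, adjusted p = 0.00224). Sox7 was at 110.4 and 155 CPM in WT, 1.44 in C4 and 3.04 in 5-3 (log2 FC -5.82 ± 0.42, adjusted p = 0.00224). The groups did not overlap for Gata4, Sox17 or Sox7. In the KO libraries, though labelled diff_XEN as the WT libraries are, Sox7 and Sox17 thus stood at no more than 3.16 CPM.

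Gata6 was also below both WT libraries in both clones, but fell less than Gata4, Sox17 and Sox7. It was at 224 and 324 CPM in WT, 91.1 in C4 and 166 in 5-3, and its fall (log2 FC -1.09 ± 0.34, adjusted p = 0.0473) was lost without clone C4 (log2 FC -0.70, adjusted p = 0.177), without WT library B (log2 FC -0.77, adjusted p = 0.193) and without WT library A (log2 FC -1.38, adjusted p = 0.0503). Clone C4 held the lower value. With the GC offset Gata6 was still called lower (log2 FC -1.46, adjusted p = 0.0257). Pdgfra, the PDGF receptor on primitive endoderm, was at 265 and 757 CPM in WT, 29.1 in C4 and 43.1 in 5-3 (log2 FC -3.82 ± 0.56, adjusted p = 0.00542), and the WT libraries differed from each other there as well. Cited1, a transcriptional co-regulator, was at 113 and 109 CPM in WT, 2.19 in C4 and 2.95 in 5-3 (log2 FC -5.41 ± 0.23, adjusted p = 0.00224). Sall4, a zinc finger factor shared by endoderm and stem cells, was at 132 and 206 CPM in WT, 8.90 in C4 and 7.37 in 5-3 (log2 FC -4.38 ± 0.30, adjusted p = 0.00224). Cited1 and Sall4 were low in both clones and the clones lay close together. The 2 tested members that did not pass were Gata5 (log2 FC -0.15, of either sign when single libraries were left out) and Cldn1 (log2 FC 0.74), both at or below 2.5 CPM in every library.

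The visceral endoderm, which covers the embryo and absorbs and secretes serum proteins, was marked by a list of its own. Of 23 tested members 19 fell and none rose, with a median of -3.79. The summed level of the list was 15250 and 13170 CPM in WT, 178 CPM in C4 and 376 CPM in 5-3. Cubn (chr2:13276338-13491813, minus strand), which encodes cubilin, was at 8175 and 8219 CPM in WT, 8.15 in C4 and 86.6 in 5-3 (log2 FC -7.43 ± 1.24, adjusted p = 0.00741). Lrp2 (chr2:69424340-69586065, minus strand), which encodes megalin, was at 4552 and 3146 CPM in WT, 40.8 in C4 and 50.98 in 5-3 (log2 FC -6.39 ± 0.32, adjusted p = 0.00224), and Dab2, the adaptor that brings them into the cell, was at 1990 and 2225 CPM in WT, 242 in C4 and 329 in 5-3 (log2 FC -2.88 ± 0.24, adjusted p = 0.00243). All of these fell in both clones, and Cubn was more than 10 times lower in C4 than in 5-3.

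Among the genes of this list that encode secreted proteins, Rbp4, the retinol carrier, was at 50.8 and 101 CPM in WT, 1.23 in C4 and 2.59 in 5-3 (log2 FC -5.23 ± 0.52, adjusted p = 0.00276). Tfpi, an inhibitor of coagulation, was at 631 and 688 CPM in WT, 57.9 in C4 and 83.2 in 5-3 (log2 FC -3.22 ± 0.24, adjusted p = 0.00224). Apoc2, an apolipoprotein, had 5.69 and 1.56 CPM in WT and no count in KO, which puts it at least 57.8-fold lower against 3 counts over the KO group. Afp, the fetal serum protein, was at 44.8 and 10.5 CPM in WT, 0.137 in C4 and 3.79 in 5-3 and did not pass (log2 FC -3.68 ± 1.21, adjusted p = 0.0535) except without clone 5-3 (adjusted p = 0.0298). Foxa1, a forkhead factor, was at 8.44 and 4.83 CPM in WT, 7.05 in C4 and 7.22 in 5-3 (log2 FC 0.11 ± 0.35, adjusted p = 0.826). Foxa1 was the only tested member of the list with a log2 FC above 0, and it turned to -0.16 with the GC offset and to -0.21 without WT library B. Hnf4a, a nuclear receptor of endoderm, was at 80.6 and 44.3 CPM in WT, 0.205 in C4 and 3.76 in 5-3 (log2 FC -4.82 ± 0.96, adjusted p = 0.0123), and Foxa2, a forkhead factor of endoderm, was at 55.9 and 56.9 CPM in WT, 2.67 in C4 and 9.72 in 5-3 (log2 FC -3.14 ± 0.57, adjusted p = 0.00946). Hnf4a and Foxa2 were higher in clone 5-3 than in C4, but below both WT libraries.

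Promoters of endoderm genes were searched for the word AGATAA or TGATAA on either strand, the core bound by GATA4 and GATA6, in windows of 300 bases (250 before to 50 after the start site). It was found in 5 of the 26 genes (19.2%) called lower from the endoderm lists that had a promoter in the RefSeq table, in 12.3% of the 11652 genes tested with a promoter, in 13.3% of the 3026 such genes called lower, and in 21.0% of all 27025 genes of the table (18.6% of its 32851 promoters). The share among the endoderm genes lay between that of the genes tested and that of all genes, and rests on few genes. Dab2, Hnf4a and Foxa2, described above, were among the 5 and are shown as examples, an endocytic adaptor and a pair of transcription factors, with the word in capitals (RefSeq, GRCm38.p6, 5′ to 3′ on the strand of the gene).
Dab2 promoter, chr15:6299539-6299838, plus strand: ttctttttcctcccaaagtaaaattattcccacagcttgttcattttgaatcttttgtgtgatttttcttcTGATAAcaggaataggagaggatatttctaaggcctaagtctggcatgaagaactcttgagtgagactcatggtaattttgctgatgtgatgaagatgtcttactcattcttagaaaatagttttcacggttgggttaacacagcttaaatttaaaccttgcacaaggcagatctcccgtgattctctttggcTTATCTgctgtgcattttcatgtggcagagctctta
Hnf4a promoter, chr2:163506607-163506906, plus strand: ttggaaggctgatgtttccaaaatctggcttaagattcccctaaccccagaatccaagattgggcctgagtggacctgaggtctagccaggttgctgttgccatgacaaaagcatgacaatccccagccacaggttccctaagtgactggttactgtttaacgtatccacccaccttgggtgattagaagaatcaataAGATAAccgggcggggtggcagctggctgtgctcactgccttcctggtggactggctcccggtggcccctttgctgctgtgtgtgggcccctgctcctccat
Foxa2 promoter, chr2:148045415-148045714, minus strand: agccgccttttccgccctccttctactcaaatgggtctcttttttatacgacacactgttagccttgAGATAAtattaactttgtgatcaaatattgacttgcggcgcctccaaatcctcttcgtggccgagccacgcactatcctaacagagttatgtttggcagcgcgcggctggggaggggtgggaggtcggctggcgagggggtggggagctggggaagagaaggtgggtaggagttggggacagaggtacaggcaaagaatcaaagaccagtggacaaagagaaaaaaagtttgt
The word starts at base -52 from the start site in Hnf4a and at base -183 in Foxa2, and Dab2 holds it on either strand. A match is a description of the sequence and binding was not measured here.

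Genes of parietal endoderm, which makes basement membrane in large amounts as Reichert's membrane, were less uniform. Of 18 tested members of the parietal endoderm list 10 fell, 1 rose and 7 did not pass, with a median of -1.33. Col4a1 and Col4a2, the chains of type IV collagen, both fell, Col4a1 from 10350 and 15700 CPM in WT to 1056 and 1461 CPM in C4 and 5-3 (log2 FC -3.37 ± 0.33, adjusted p = 0.00271) and Col4a2 from 4956 and 7401 CPM in WT to 801 and 986 CPM in C4 and 5-3 (log2 FC -2.79 ± 0.29, adjusted p = 0.00285). Lama1, the laminin alpha chain of early basement membranes, was at 9011 and 16260 CPM in WT, 109 in C4 and 294 in 5-3 (log2 FC -5.97 ± 0.66, adjusted p = 0.00312). Fabp3, a fatty acid binding protein, was at 251 and 343 CPM in WT, 18.01 in C4 and 24.5 in 5-3 (log2 FC -3.80 ± 0.27, adjusted p = 0.00224). Nid1, which links laminin to collagen, was at 472 and 984 CPM in WT, 702 in C4 and 806 in 5-3 (log2 FC 0.05 ± 0.36, adjusted p = 0.921). Hspg2, which encodes perlecan, was at 2167 and 1839 CPM in WT, 3396 in C4 and 2706 in 5-3 (log2 FC 0.61 ± 0.22, adjusted p = 0.0675). Neither Nid1 nor Hspg2 passed. Vim, which encodes vimentin, was the member that rose, from 223 and 89.4 CPM in WT to 2285 and 2154 CPM in C4 and 5-3 (log2 FC 3.83 ± 0.48, adjusted p = 0.00381).

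Endocytosis and lysosome genes, a list that includes Cubn, Lrp2, Amn and Dab2, were mostly lower. Of 18 tested, 14 fell and 2 rose, with a median of -1.65. Ctsl, which encodes the lysosomal protease cathepsin L, was at 6512 and 4907 CPM in WT, 516 in C4 and 753 in 5-3 (log2 FC -3.17 ± 0.30, adjusted p = 0.00257). Atp6v0a1, a subunit of the proton pump that acidifies lysosomes, was at 354 and 487 CPM in WT, 73.2 in C4 and 79.4 in 5-3 (log2 FC -2.46 ± 0.22, adjusted p = 0.00246). Ctsd, another cathepsin, went the other way at 1075 and 933 CPM in WT, 2233 in C4 and 1774 in 5-3 (log2 FC 1.00 ± 0.21, adjusted p = 0.0144), a call that was lost with the GC offset (adjusted p = 0.051), without WT library B (adjusted p = 0.0619) and without clone C4 (adjusted p = 0.0766). Npc2 was the other member that rose (log2 FC 0.71 ± 0.20, adjusted p = 0.032), and was lost without WT library B (adjusted p = 0.08) and without either clone (0.0678 without C4 and 0.168 without 5-3).

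Pluripotency genes that were still measured in WT were lower in KO. Of 15 tested naive pluripotency genes 12 fell and none rose (median -2.92), and of 14 general pluripotency genes 11 fell and 1 rose (median -4.07). Pou5f1, which encodes OCT4, was at 95.3 and 83.6 CPM in WT libraries A and B, 0.959 CPM in clone C4 and 4.42 CPM in clone 5-3 (log2 FC -4.95 ± 0.63, adjusted p = 0.00393). Esrrb, a nuclear receptor of the naive state, was at 31.4 and 23.4 CPM in WT, 0.753 in C4 and 0.813 in 5-3 (log2 FC -5.11 ± 0.31, adjusted p = 0.00224). Zfp42, which encodes REX1, was at 39.95 and 30.03 CPM in WT, 4.25 in C4 and 4.97 in 5-3 (log2 FC -2.92 ± 0.26, adjusted p = 0.00246). Dppa5a was at 486 and 570.2 CPM in WT, 8.29 in C4 and 23.4 in 5-3 (log2 FC -5.04 ± 0.54, adjusted p = 0.00297). Pou5f1, Esrrb, Zfp42 and Dppa5a did not overlap between the groups. Prdm14, a regulator of naive pluripotency, had no count in KO and was at least 14.6-fold lower, from 1.17 and 0.655 CPM in WT, but its call was lost without clone 5-3 (adjusted p = 0.0507).

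Nanog and Sox2 were less clear. Nanog was at 30.5 and 4.56 CPM in WT, 0.959 in C4 and 1.60 in 5-3, so that WT library A held several times the level of library B, and its fall (log2 FC -3.73 ± 0.97, adjusted p = 0.0265) was lost without either clone (adjusted p = 0.117 without C4 and 0.0958 without 5-3). Sox2 was at 6.78 and 1.80 CPM in WT, 5.14 in C4 and 3.43 in 5-3 (log2 FC -0.01 ± 0.66, adjusted p = 0.989), with overlapping groups. Among the formative and primed epiblast genes, 2 of 11 rose and 1 fell, against 22.1% higher and 24.9% lower over all genes tested. Those that rose were Sox4 (log2 FC 2.20 ± 0.29, adjusted p = 0.00436) and Dnmt3a (log2 FC 1.01 ± 0.24, adjusted p = 0.0213). WT libraries A and B were far apart for several genes of that list, among them Otx2 at 18.1 and 0.792 CPM in WT, 0.0685 in C4 and 1.57 in 5-3 and Nodal at 10.2 and 0.519 CPM in WT, 6.03 in C4 and 5.78 in 5-3.

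The methyltransferase genes of DNA split in their direction. Dnmt3l, a cofactor without catalytic activity that is strongly used in stem cells, was at 97.3 and 118 CPM in WT, 1.58 in C4 and 1.51 in 5-3 (log2 FC -6.13 ± 0.23, adjusted p = 0.00224). Dnmt3b, which places new methyl groups, was at 259.9 and 127 CPM in WT, 9.79 in C4 and 13.9 in 5-3 (log2 FC -4.02 ± 0.43, adjusted p = 0.00292). Dnmt3a, its paralogue, was at 139.5 and 123 CPM in WT, 209.9 in C4 and 319 in 5-3. Dnmt3b and Dnmt3l fell in both clones, while the call of Dnmt3a was lost without clone 5-3 (adjusted p = 0.0987), without WT library A (adjusted p = 0.0533) and without WT library B (adjusted p = 0.0811). Uhrf1, which guides maintenance methylation, fell (log2 FC -1.01 ± 0.16, adjusted p = 0.00611), a call that was lost without clone C4 (adjusted p = 0.0554). Dnmt1, the maintenance enzyme, did not pass (log2 FC -0.26 ± 0.15, adjusted p = 0.197) but was called lower with the GC offset (log2 FC -0.53, adjusted p = 0.0322). Of the 9 genes of the list 5 fell and 2 rose, against 24.9% lower and 22.1% higher over all genes tested. Of 8 tested genes of the 2-cell-like state 3 fell, namely Zscan4c, Zscan4d and Zscan4f (log2 FC -3.495, -3.94 and -3.79), all below 5 CPM. They are near-identical copies whose reads could have been split, and none was called without WT library A, without WT library B, without clone 5-3 or with the GC offset.

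Genes of mesenchyme and of the contractile apparatus were higher in KO. All 14 tested genes of the smooth muscle list rose, with a median of 2.85, and the summed level of the list was 2961 and 1709 CPM in WT, 15250 CPM in C4 and 16570 CPM in 5-3. Tpm1, a tropomyosin, was at 739 and 523 CPM in WT libraries A and B, 3952 CPM in clone C4 and 3586 CPM in clone 5-3 (log2 FC 2.58 ± 0.25, adjusted p = 0.00268). Cnn2, a calponin, was at 186 and 120.3 CPM in WT, 921 in C4 and 1055 in 5-3 (log2 FC 2.69 ± 0.27, adjusted p = 0.00278). Myl9, a myosin light chain, was at 88.8 and 48.8 CPM in WT, 559 in C4 and 548 in 5-3 (log2 FC 3.01 ± 0.32, adjusted p = 0.00297). The clones lay close together and above both WT libraries for Tpm1, Cnn2 and Myl9. Acta2, smooth muscle actin, was at 651 and 262 CPM in WT, 3858 in C4 and 4375 in 5-3 (log2 FC 3.17 ± 0.47, adjusted p = 0.00544).

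Of 21 tested fibroblast and mesenchyme genes 14 rose and 2 fell (median 2.04), and their summed level was 3179 and 1820 CPM in WT, 9383 CPM in C4 and 12430 CPM in 5-3. Tnc, the matrix protein tenascin C, was at 296 and 240.1 CPM in WT, 1228 in C4 and 1414 in 5-3 (log2 FC 2.30 ± 0.21, adjusted p = 0.00246). Col5a1, a chain of type V collagen, was at 75.5 and 36.9 CPM in WT, 757 in C4 and 846 in 5-3 (log2 FC 3.83 ± 0.39, adjusted p = 0.0028). Pdgfrb, the PDGF receptor of mesenchyme, was at 15.5 and 10.3 CPM in WT, 98.1 in C4 and 169 in 5-3 (log2 FC 3.37 ± 0.36, adjusted p = 0.00297). The chains of type I collagen moved apart, with Col1a1 at 168 and 41.7 CPM in WT, 1385 in C4 and 2073 in 5-3 (log2 FC 4.04 ± 0.72, adjusted p = 0.00875). Col1a2 was at 211 and 57.2 CPM in WT, 26.9 in C4 and 35.2 in 5-3 (log2 FC -2.11 ± 0.61, adjusted p = 0.0372). Col1a1 was above WT and Col1a2 below WT in both clones, although the fall of Col1a2 passed in neither clone alone (adjusted p = 0.113 for C4 and 0.155 for 5-3). Lum, the other member that fell, had no count in KO and was at least 18.04-fold lower, from 1.36 and 0.901 CPM in WT.

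Genes of the epithelial to mesenchymal transition rose in 13 of 14 cases, with a median of 2.03 and none lower. Cdh2, which encodes N-cadherin, was at 39.9 and 32.6 CPM in WT, 191 in C4 and 243 in 5-3 (log2 FC 2.58 ± 0.21, adjusted p = 0.00243). Zeb1, a repressor of epithelial genes, was at 12.9 and 11.7 CPM in WT, 44.2 in C4 and 62.6 in 5-3 (log2 FC 2.12 ± 0.24, adjusted p = 0.00318). Twist1, another regulator of the transition, was at 5.77 and 4.29 CPM in WT, 24.7 in C4 and 33.5 in 5-3 (log2 FC 2.53 ± 0.28, adjusted p = 0.00318). Snai1 was the member that did not pass, at 23.7 and 33.2 CPM in WT, 18.01 in C4 and 16.2 in 5-3 (log2 FC -0.73 ± 0.24, adjusted p = 0.0519), and it was called lower with the GC offset (log2 FC -1.43, adjusted p = 0.0172) and without WT library A (adjusted p = 0.0274). Of 18 epithelial junction genes 10 fell and 3 rose (median -0.85). Epcam, an adhesion molecule of epithelia, was at 157 and 107 CPM in WT, 12.7 in C4 and 17.3 in 5-3 (log2 FC -3.13 ± 0.28, adjusted p = 0.00246). Esrp1, a splicing factor of epithelia, was at 60.04 and 42.5 CPM in WT, 3.56 in C4 and 5.96 in 5-3 (log2 FC -3.40 ± 0.34, adjusted p = 0.00278). Cldn6, a claudin, was at 716 and 478 CPM in WT, 105 in C4 and 63.3 in 5-3 (log2 FC -2.82 ± 0.34, adjusted p = 0.00366). Cldn4, Krt8 and Krt18 were the members that rose, by 2.61 ± 0.58, 1.48 ± 0.32 and 1.08 ± 0.33 on the log2 scale, and none of the 3 was called without clone C4 (adjusted p = 0.0644, 0.0708 and 0.162). Krt18 was also lost without clone 5-3 (adjusted p = 0.0695), without WT library B (adjusted p = 0.114) and with the GC offset (adjusted p = 0.101). Cdh1, which encodes E-cadherin, fell from 695 and 445 CPM in WT to 321 and 180 CPM in C4 and 5-3 (log2 FC -1.19 ± 0.36, adjusted p = 0.0417), a call that was lost without WT library A, WT library B or clone 5-3 (adjusted p = 0.17, 0.071 and 0.165).

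**Figure D4:**
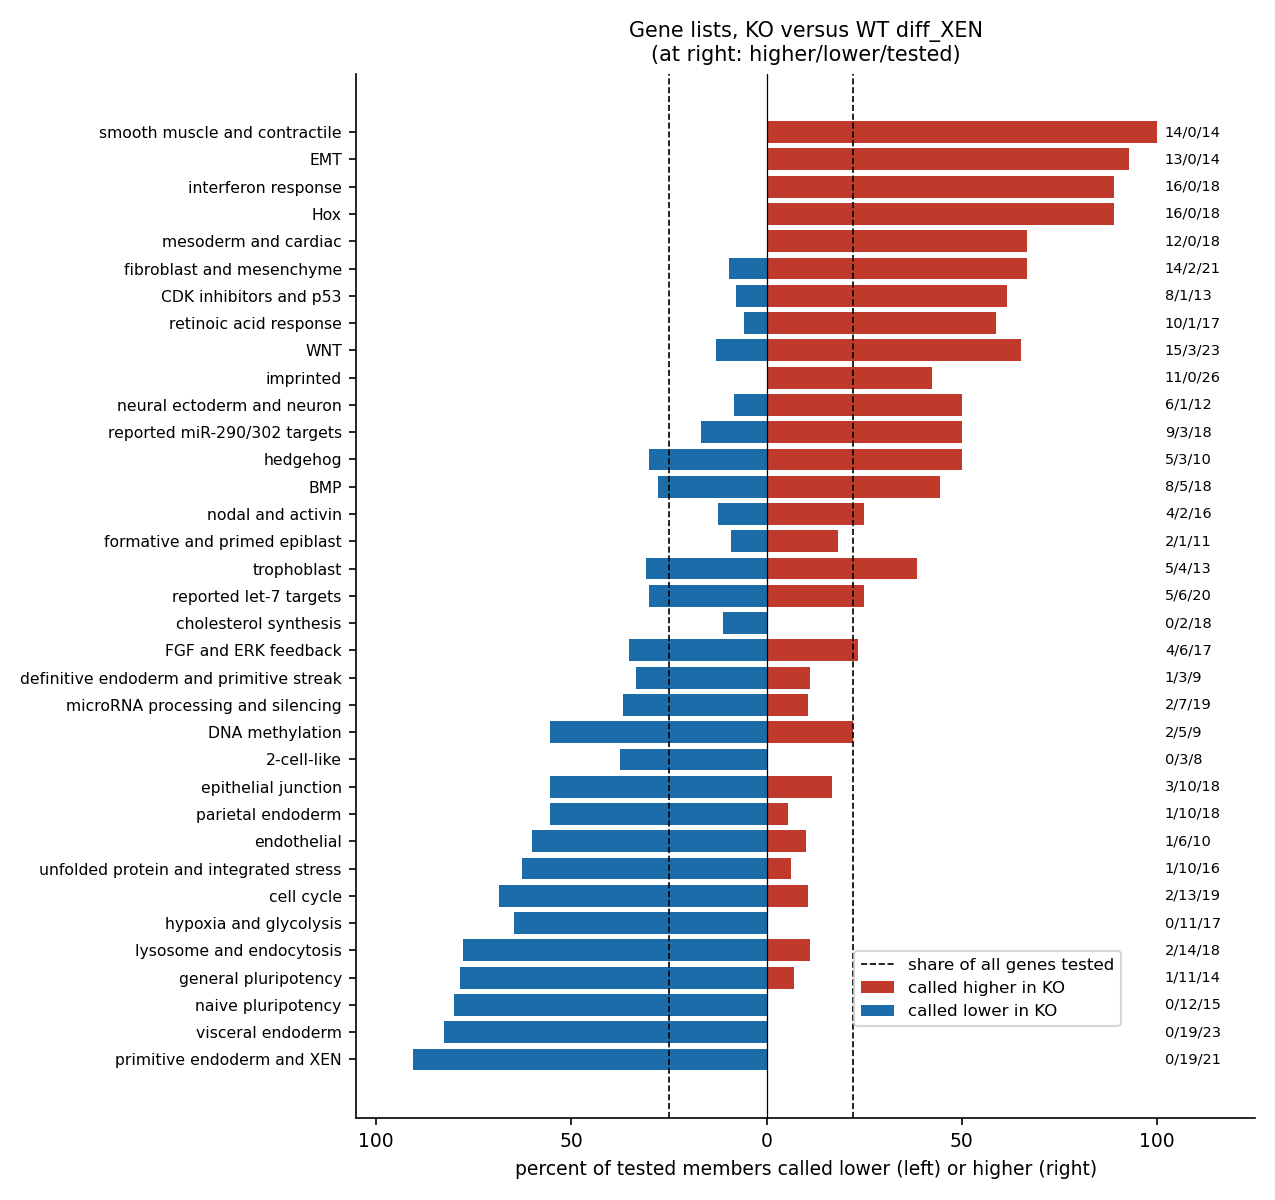
Share of the tested members of each gene list that were called higher (right) or lower (left) in KO, with the dashed lines at the shares of all genes tested (22.1% higher and 24.9% lower) and the counts of higher, lower and tested members at the right edge. Lists with fewer than 8 tested members are left out. The endoderm, pluripotency and lysosome lists reach to the left, and the contractile, transition, interferon and Hox lists to the right.

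Markers of other lineages were measured to see what else the cultures held. Of 18 mesoderm and cardiac genes 12 rose and none fell (median 2.05). Actc1 (chr2:114047282-114053548, minus strand), cardiac actin, was at 0.844 and 0.546 CPM in WT, 81.5 in C4 and 86.1 in 5-3 (log2 FC 6.91 ± 0.28, adjusted p = 0.00224). Foxf1, a factor of lateral mesoderm, was at 6.02 and 4.29 CPM in WT, 18.01 in C4 and 17.6 in 5-3 (log2 FC 1.79 ± 0.27, adjusted p = 0.00563). Msx2, a BMP-responsive homeobox factor, was at 7.98 and 10.1 CPM in WT, 69.9 in C4 and 34.5 in 5-3 (log2 FC 2.53 ± 0.39, adjusted p = 0.00586). Some of the others reached lower levels in KO than these. Nkx2-5 was at 0.653 and 0.164 CPM in WT, 5.34 in C4 and 9.09 in 5-3. Tnnt2 was at 0.680 and 0.3003 CPM in WT, 3.08 in C4 and 1.14 in 5-3. Both clones lay above both WT libraries for Nkx2-5 and Tnnt2. Of 12 neural genes 6 rose and 1 fell (median 0.91). Nes, which encodes nestin, was at 60.5 and 37.98 CPM in WT, 401 in C4 and 324 in 5-3 (log2 FC 2.88 ± 0.29, adjusted p = 0.00278). Tubb3 was at 14.3 and 9.45 CPM in WT, 65.7 in C4 and 80.5 in 5-3 (log2 FC 2.62 ± 0.27, adjusted p = 0.00283). Dcx was at 1.09 and 0.683 CPM in WT, 12.5 in C4 and 27.8 in 5-3 (log2 FC 4.51 ± 0.53, adjusted p = 0.00346), while Onecut1 was the member that fell (log2 FC -5.13 ± 0.64, adjusted p = 0.00377).

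Trophoblast genes had 5 of 13 higher and 4 lower, against 22.1% higher and 24.9% lower over all genes tested. Gata2 rose from 3.67 and 2.57 CPM in WT to 22.4 and 42.3 CPM in C4 and 5-3 (log2 FC 3.38 ± 0.41, adjusted p = 0.0036) and Gata3 from 9.36 and 5.65 CPM in WT to 40.5 and 36.5 CPM in C4 and 5-3 (log2 FC 2.36 ± 0.30, adjusted p = 0.00391), whereas Tead4 fell from 56.6 and 53.2 CPM in WT to 12.6 and 12.9 CPM in C4 and 5-3 (log2 FC -2.11 ± 0.17, adjusted p = 0.00243). Of 9 tested genes of definitive endoderm and primitive streak 3 fell and 1 rose. Eomes fell (log2 FC -2.47 ± 0.37, adjusted p = 0.00544), and Wnt3 rose from 0.517 and 0.191 CPM in WT to 10.2 and 2.95 CPM in C4 and 5-3 (log2 FC 4.18 ± 0.84, adjusted p = 0.0125), a call that was lost without WT library B (adjusted p = 0.0771). Of 10 endothelial genes 6 fell and 1 rose, with Egfl7 at 56.7 and 38.3 CPM in WT, 7.19 in C4 and 8.46 in 5-3 (log2 FC -2.60 ± 0.27, adjusted p = 0.00287). Cdh5 was at 5.63 and 4.75 CPM in WT, 0.411 in C4 and 0.361 in 5-3 (log2 FC -3.75 ± 0.41, adjusted p = 0.00312). Kdr, the member that rose, was at 15.2 and 17.3 CPM in WT, 32.5 in C4 and 41.8 in 5-3 (log2 FC 1.20 ± 0.22, adjusted p = 0.0092), and was lost without clone 5-3 (adjusted p = 0.061). Of 12 blood genes 10 were too low to be tested, and the embryonic globins Hba-x, Hbb-bh1 and Hbb-y had at most 2 counts in any library. Csf1r, 1 of the 2 tested blood genes, was at 13.6 and 9.94 CPM in WT, 1.58 in C4 and 5.18 in 5-3 (log2 FC -1.75 ± 0.56, adjusted p = 0.0498), and its call was lost without WT library A, WT library B or clone C4 (adjusted p = 0.151, 0.111 and 0.0959).

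Retinoic acid was part of the medium of all libraries, and genes of its pathway differed between the genotypes. Of 17 tested, 10 rose and 1 fell (median 1.18). The receptor gene Rarg was at 23.2 and 13.3 CPM in WT, 124 in C4 and 109.8 in 5-3 (log2 FC 2.68 ± 0.31, adjusted p = 0.00327). Cyp26a1, the enzyme that breaks retinoic acid down, fell from 655 and 992 CPM in WT to 77.5 and 92.2 CPM in C4 and 5-3 (log2 FC -3.28 ± 0.27, adjusted p = 0.00243). Of 18 tested Hox genes, which set position along the body axis, 16 rose and none fell (median 2.32). Hoxa5 was at 19.1 and 14.8 CPM in WT, 117 in C4 and 109.9 in 5-3 (log2 FC 2.74 ± 0.20, adjusted p = 0.00224). Hoxb3 was at 9.01 and 7.59 CPM in WT, 38.8 in C4 and 38.6 in 5-3 (log2 FC 2.22 ± 0.20, adjusted p = 0.00246). Hoxa4 was at 2.86 and 2.18 CPM in WT, 17.2 in C4 and 18.9 in 5-3 (log2 FC 2.84 ± 0.27, adjusted p = 0.00259). Hoxb1, at the anterior end of its cluster, did not pass (log2 FC -0.21). With the GC offset 14 of the Hox genes rose and none fell.

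Among signalling pathways, WNT genes showed the largest share of rises, with 15 of 23 higher and 3 lower (median 2.18). Axin2, a feedback target of the pathway, was at 4.90 and 4.45 CPM in WT, 29.5 in C4 and 25.9 in 5-3 (log2 FC 2.56 ± 0.22, adjusted p = 0.00246). Dkk3 was at 13.6 and 14.1 CPM in WT, 73.7 in C4 and 60.3 in 5-3 (log2 FC 2.27 ± 0.19, adjusted p = 0.00243), while Dkk1 fell as given above. Of 18 BMP genes 8 rose and 5 fell, or 10 and 3 with the GC offset. Bmp7 rose from 3.02 and 2.54 CPM in WT to 39.2 and 30.2 CPM in C4 and 5-3 (log2 FC 3.64 ± 0.26, adjusted p = 0.00224) and Bmp2 fell from 30.5 and 25.1 CPM in WT to 5.62 and 4.30 CPM in C4 and 5-3 (log2 FC -2.496 ± 0.26, adjusted p = 0.00285), so the ligands differed in direction, and the inhibitory Smad6 rose (log2 FC 3.25 ± 0.32, adjusted p = 0.00278). Of 16 nodal and activin genes 4 rose and 2 fell, against 22.1% higher and 24.9% lower over all genes tested. Smad3, a transducer of activin signals, was at 62.4 and 57.8 CPM in WT, 283 in C4 and 271 in 5-3 (log2 FC 2.20 ± 0.16, adjusted p = 0.00224), Smad7, its inhibitor, rose (log2 FC 1.58 ± 0.25, adjusted p = 0.00628), and Fst, which encodes the activin antagonist follistatin, fell from 75.3 and 280 CPM in WT to 22.4 and 14.6 CPM in C4 and 5-3 (log2 FC -3.27 ± 0.66, adjusted p = 0.013) without passing in either clone alone (adjusted p = 0.0713 for C4 and 0.0526 for 5-3).

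FGF genes had 4 of 17 higher and 6 lower, against 22.1% higher and 24.9% lower over all genes tested. The receptor genes split, with Fgfr1 at 38.3 and 16.9 CPM in WT, 185 in C4 and 276 in 5-3 (log2 FC 3.06 ± 0.45, adjusted p = 0.00542). Fgfr4 was at 23.1 and 28.3 CPM in WT, 0.890 in C4 and 1.45 in 5-3 (log2 FC -4.40 ± 0.33, adjusted p = 0.00224). Fgf3 had 1 count in KO, against 4.33 and 5.57 CPM in WT, a ratio of WT to KO of 237 (95% exact interval 42.2 to 9373) that covers counting error only, and Fgf10 fell (log2 FC -3.79 ± 0.38, adjusted p = 0.00278). Of 10 hedgehog genes 5 rose and 3 fell, or 5 and 5 with the GC offset. The ligand gene Ihh fell from 39.3 and 44.3 CPM in WT to 0.685 and 2.14 CPM in C4 and 5-3 (log2 FC -4.78 ± 0.50, adjusted p = 0.00287), and Gli3, a transcription factor of the pathway, rose from 28.03 and 15.97 CPM in WT to 147 and 146 CPM in C4 and 5-3 (log2 FC 2.73 ± 0.30, adjusted p = 0.00314), as did Smo, the signal transducer (log2 FC 1.55 ± 0.19, adjusted p = 0.00354).

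Cell cycle genes were lower in KO, with 13 of 19 called lower and 2 higher (median -0.91). Ccnb1, a mitotic cyclin, was at 161 and 152 CPM in WT, 27.9 in C4 and 22.8 in 5-3 (log2 FC -2.63 ± 0.18, adjusted p = 0.00224). Ccna2 was at 192 and 247 CPM in WT, 32.6 in C4 and 29.8 in 5-3 (log2 FC -2.82 ± 0.20, adjusted p = 0.00224) and the proliferation marker Mki67 at 319 and 578 CPM in WT, 19.2 in C4 and 18.6 in 5-3 (log2 FC -4.57 ± 0.35, adjusted p = 0.00224). Both clones were below both WT libraries for Ccnb1, Ccna2 and Mki67. The cyclins Ccnd1 and Ccnd3, which act in the first gap phase, were the members that rose (log2 FC 2.03 ± 0.34, adjusted p = 0.0076 for Ccnd1 and log2 FC 1.31 ± 0.20, adjusted p = 0.00558 for Ccnd3). Of 13 genes of cyclin-dependent kinase inhibitors and p53 targets 8 rose and 1 fell (median 1.11), or 10 and 2 with the GC offset. Cdkn1c, which encodes p57, was at 14.5 and 11.7 CPM in WT, 106 in C4 and 172 in 5-3 (log2 FC 3.41 ± 0.30, adjusted p = 0.00246), and the member that fell was Cdkn1b, which encodes p27, at 62.00 and 78.6 CPM in WT, 24.9 in C4 and 22.4 in 5-3 (log2 FC -1.57 ± 0.20, adjusted p = 0.00381).

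Interferon response genes were higher in KO. Of 18 tested 16 rose and none fell, with a median of 2.42. Psmb8, a subunit of the immunoproteasome, was at 0.898 and 0.328 CPM in WT, 44.4 in C4 and 51.8 in 5-3 (log2 FC 6.29 ± 0.48, adjusted p = 0.00224). Irf9, a transcription factor of the interferon pathway, was at 44.6 and 40.5 CPM in WT, 142 in C4 and 203 in 5-3 (log2 FC 2.02 ± 0.23, adjusted p = 0.00318). Tap1, a peptide transporter for antigen presentation, was at 28.4 and 14.4 CPM in WT, 181 in C4 and 196 in 5-3 (log2 FC 3.14 ± 0.36, adjusted p = 0.00324). Isg15 was at 21.3 and 4.12 CPM in WT, 301 in C4 and 602 in 5-3 (log2 FC 5.15 ± 0.88, adjusted p = 0.008), higher in clone 5-3 than in C4. The class I genes H2-K1 (log2 FC -0.34) and H2-D1 (log2 FC -0.52) did not pass, but H2-D1 was called lower with the GC offset (adjusted p = 0.0198) and both were without WT library B (adjusted p = 0.038 and 0.0276). With the GC offset 14 members rose and 1 fell.

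Of 17 hypoxia and glycolysis genes 11 fell, or 13 with the GC offset, and none rose (median -1.68). Pfkp, a phosphofructokinase, was at 212 and 194 CPM in WT, 23.8 in C4 and 22.7 in 5-3 (log2 FC -3.13 ± 0.17, adjusted p = 0.00224). Vegfa, the vascular growth factor, was at 215 and 205 CPM in WT, 44.6 in C4 and 52.01 in 5-3 (log2 FC -2.12 ± 0.17, adjusted p = 0.00234). Bnip3, a hypoxia-induced mitochondrial protein, was at 132 and 134 CPM in WT, 9.72 in C4 and 16.6 in 5-3 (log2 FC -3.32 ± 0.29, adjusted p = 0.00246). Of 16 genes of the unfolded protein and integrated stress responses 10 fell and 1 rose, or 11 and 2 with the GC offset (median -1.10), with Asns, asparagine synthetase, at 631 and 674 CPM in WT, 94.5 in C4 and 108 in 5-3 (log2 FC -2.68 ± 0.18, adjusted p = 0.00224). Psat1, an enzyme of serine synthesis, was at 543 and 778 CPM in WT, 73.8 in C4 and 87.6 in 5-3 (log2 FC -3.03 ± 0.25, adjusted p = 0.00243). Hsp90b1, a chaperone of the endoplasmic reticulum, was at 1406 and 1804 CPM in WT, 287 in C4 and 353 in 5-3 (log2 FC -2.33 ± 0.23, adjusted p = 0.00271). Cholesterol synthesis genes had few calls, with 2 of 18 lower and none higher. These were Insig1, at 308 and 547 CPM in WT, 25.3 in C4 and 55.2 in 5-3 (log2 FC -3.40 ± 0.48, adjusted p = 0.005), and Lss, at 107 and 52.2 CPM in WT, 22.8 in C4 and 29.6 in 5-3 (log2 FC -1.60 ± 0.38, adjusted p = 0.0197), the latter lost without C4 (adjusted p = 0.103) and without 5-3 (adjusted p = 0.0655).

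Imprinted genes, which are used from a single parental copy, rose in 11 of 26 cases and fell in none (median 1.00). Ndn was at 22.2 and 17.5 CPM in WT, 118 in C4 and 143 in 5-3 (log2 FC 2.72 ± 0.21, adjusted p = 0.00228). Mest was at 83.6 and 63.2 CPM in WT, 249 in C4 and 269 in 5-3 (log2 FC 1.82 ± 0.20, adjusted p = 0.00312), with the clones close together. Some other imprinted genes differed between the clones. Plagl1 (chr10:13060504-13131694, plus strand), a zinc finger factor, was at 0.980 and 0.874 CPM in WT, 85.3 in C4 and 0.752 in 5-3, so that clone C4 was high and clone 5-3 lay at the WT level. Nnat, which encodes neuronatin, was at 0.871 and 0.109 CPM in WT, 139.5 in C4 and 6.47 in 5-3 (log2 FC 7.20 ± 1.77, adjusted p = 0.0227), higher in C4 than in 5-3, and was not called without clone C4 (adjusted p = 0.0586), without WT library A (adjusted p = 0.0882) or without WT library B (adjusted p = 0.136). H19, a non-coding RNA named here after its values were seen, was at 121 and 35.8 CPM in WT, 3387 in C4 and 13.96 in 5-3 (log2 FC 4.44 ± 2.13, adjusted p = 0.14), the highest level in C4 and the lowest in 5-3, so that C4 alone was called higher (adjusted p = 0.0161).

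Between the clones, 786 genes (4.71%) were more than 2-fold higher in C4 and 988 (5.93%) more than 2-fold lower. Between WT libraries A and B the corresponding counts were 1144 (6.86%) and 545 (3.27%). Among genes that reached 20 CPM in a clone and differed by less than 2-fold between the WT libraries, Plagl1, Ago2, Fbln2, Cyyr1, Camk2a and Abcb1b were the 6 with the largest excess in C4. Fbln2, a matrix protein, was at 11.3 and 6.55 CPM in WT, 197 in C4 and 41.2 in 5-3 and rose (log2 FC 3.74 ± 0.79, adjusted p = 0.0149), a call that was lost without WT library A or B (adjusted p = 0.065 and 0.105). Camk2a was at 6.61 and 6.74 CPM in WT, 22.2 in C4 and 6.41 in 5-3, and Abcb1b at 24.6 and 13.02 CPM in WT, 50.8 in C4 and 15.5 in 5-3, with 5-3 near the WT level in either case. Pga5, Cubn, Kit, Plac8 and Grin2c were among the 6 with the largest excess in 5-3. Pga5, which encodes a pepsinogen, was at 1207 and 751 CPM in WT, 1.23 in C4 and 70.1 in 5-3. Kit, a receptor tyrosine kinase, was at 189 and 289 CPM in WT, 3.15 in C4 and 29.98 in 5-3. Plac8 was at 112 and 101 CPM in WT, 3.22 in C4 and 28.7 in 5-3, and Grin2c, an NMDA receptor subunit, at 1.99 and 1.12 CPM in WT, 4.11 in C4 and 31.2 in 5-3. Of these 5, Grin2c was above WT in both clones, and the others were below WT in both clones but further below it in C4. In the fit of both clones against WT, Pga5 and Plac8 did not pass (adjusted p = 0.0536 and 0.0533). Plagl1, Camk2a and Abcb1b did not pass either (adjusted p = 0.066, 0.175 and 0.313). The calls of Kit (adjusted p = 0.0579 and 0.0998) and Grin2c (0.108 and 0.167) were lost without WT library A or B. Grin2c was also lost without clone 5-3 (adjusted p = 0.139) and with the GC offset (adjusted p = 0.0634), and Cyyr1 without WT library B (adjusted p = 0.0733). With 1 library per clone no test of a clone difference was made.

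The largest rises among genes of at least 5 CPM in the higher group were those of Nnat (7.20), Actc1 (6.91), Stmn4 (6.81), Grik4 (6.62), Apol9a (6.57), Psmb8 (6.29), Wnt10b (6.01), Tmem179 (5.98), Apol9b (5.96) and Arc (5.95), given as log2 fold changes. Stmn4, a neuronal stathmin, was at 0.327 and 0.164 CPM in WT, 32.9 in C4 and 23.1 in 5-3 (log2 FC 6.81 ± 0.44, adjusted p = 0.00224). Arc, an activity-regulated gene of neurons, was at 1.42 and 0.655 CPM in WT, 62.1 in C4 and 66.8 in 5-3 (log2 FC 5.95 ± 0.40, adjusted p = 0.00224). Wnt10b, a WNT ligand, was at 0.463 and 0.246 CPM in WT, 32.3 in C4 and 13.99 in 5-3 (log2 FC 6.01 ± 0.61, adjusted p = 0.00279). Apol9a and Apol9b are near-identical copies, so that their reads could have been split between them.

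The largest falls were those of Apoa2, Col6a5, Serpina10, Bglap3, Slco4c1, Tktl2, Slc23a1, Mep1b, Enpep and Ugt1a7c. Apoa2 (chr1:171225054-171226379, plus strand), an apolipoprotein, had 12.8 and 8.25 CPM in WT, 0 in C4 and 0 in 5-3, which is at least 168-fold lower against 3 counts over the KO group. Col6a5, a collagen VI chain, had 13.5 and 33.8 CPM in WT and 1 count in KO, a ratio of 1130 (95% exact interval 203 to 44680). Slc23a1, a vitamin C transporter, was at 26.7 and 20.8 CPM in WT, 0 in C4 and 0.120 in 5-3 (log2 FC -8.12 ± 0.59, adjusted p = 0.00224). Enpep, a membrane aminopeptidase, was at 28.4 and 159.7 CPM in WT, 0.137 in C4 and 0.482 in 5-3 (log2 FC -8.01 ± 1.15, adjusted p = 0.00515). Bglap3 was at 45.7 and 48.7 CPM in WT, 0.0685 in C4 and 0.151 in 5-3 (log2 FC -8.53 ± 0.34, adjusted p = 0.00224). Serpina10 was at 2.61 and 19.7 CPM in WT, 0 in C4 and 0.0301 in 5-3, a ratio of WT to KO of 533 (95% exact interval 95.3 to 21060), with WT libraries far apart, and its call was lost without clone C4 (adjusted p = 0.0504) and without clone 5-3 (adjusted p = 0.0582). Slco4c1, Tktl2 and Mep1b had 1 to 3 counts in KO, with ratios of WT to KO of 374 (95% exact interval 128 to 1817), 335 (95% exact interval 59.9 to 13260) and 297 (95% exact interval 81.9 to 2453). Ugt1a7c shares exons with other genes of its cluster and its change, from 14.9 and 26.7 CPM in WT to 0.0685 and 0.0903 CPM in C4 and 5-3, is uncertain.

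Genes were also summarised by chromosome, for those of at least 5 CPM in the higher group. The median log2 fold change was -0.65 on chromosome 1 (738 genes, 15.2% higher and 48.5% lower) and 0.60 on chromosome 15 (490 genes, 46.1% higher and 17.6% lower), where Ago2 lies. Both clones showed this, with -0.65 and -0.60 on chromosome 1 and 0.48 and 0.68 on chromosome 15, while the WT libraries differed by -0.04 and 0.03. With the GC offset the medians were -0.37 and 0.52. Among the largest rises, Apol9a, Apol9b, Wnt10b and Arc lie on chromosome 15, as does Tnrc6b. Among the largest falls, Apoa2, Slco4c1 and Ugt1a7c lie on chromosome 1. Dab2, also on chromosome 15, fell. Chromosomes 13, 14 and X had medians of -0.34, -0.28 and -0.31, which became -0.03, 0.02 and -0.03 with the GC offset. The number of chromosome copies was not measured here, and its part in these medians was not tested.

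**Figure D5:**
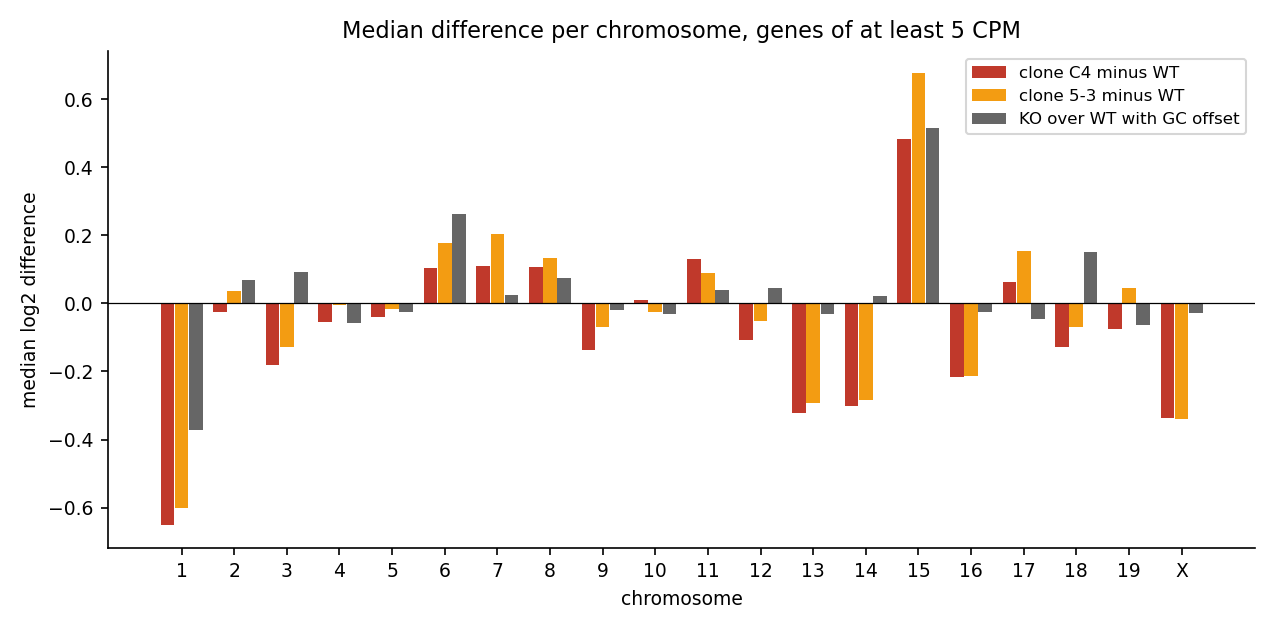
Median log2 difference from WT per chromosome (without Y, which had 4 such genes) for genes of at least 5 CPM, for clone C4, for clone 5-3 and for both with the GC offset. Of those plotted, chromosome 1 lies lowest and chromosome 15 highest in both clones, and both keep their sign with the offset.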

How the data were processed

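Polyadenylated RNA from 4 libraries was extracted with Trizol and prepared with a TruSeq kit, and the libraries were marked as reverse-stranded and as re-used from an earlier study, per the labels' protocols. The authors deposited whole-number counts per Ensembl gene, made with STAR 2.5.0c and featureCounts 1.4.5-p1 on mm10 per the submitters' processing notes. The annotation release, the strand setting and the handling of overlapping genes are not given in the sources used here. Among named genes the overlap with exons of another gene was longest for Ugt1a7c, Lats2, Sox4, Hoxb3, Ctsl and Ccnd1, whose counts are uncertain for that reason. The table held 3 further columns of per-sample values that were not used. Column names gave the genotype, the stage and, for KO, the clone of a library, but no replicate number.

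Counts were tested with edgeR 4.0.16 in R 4.3.3 (TMM scaling, expression filter by group, robust quasi-likelihood fit), with Benjamini-Hochberg adjustment over all 16671 genes tested. An exact permutation test of 2 against 2 libraries cannot go below 0.333 and was not used. A fit of 1 clone against WT takes the spread of that clone from the WT libraries. Ratios against 1 to 3 counts have exact 95% intervals, and genes without a KO count are bounded against 3 counts over the group, for counting error only. No list median given here changes when such genes stand at their bound. Symbols were found for 42462 genes and coordinates for 42548. In simulated counts 200 of 16671 genes, of at least 5 CPM, were changed, without a trend along GC. Of these, 99% of genes changed 8-fold and 63% of those changed by 1.5 on the log2 scale were called. Among the unchanged genes 18 were called. The real libraries differed along GC and had 47% of genes called, so these numbers do not measure false calls in them.

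Genes were named by rule: the Argonautes, 10 lineage factors, the 10 largest called rises and falls of at least 5 CPM without overlap, the 3 members of each of 37 lists with the smallest p, and 6 clone differences in each direction. Other genes were named after their values were seen, and the members and lists were chosen with earlier results of these data known. Some genes that the rule names are not reported here.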

Additional observations from a re-analysis of the deposited data

How the results depend on the processing

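Against 7835 calls (3685 higher and 4150 lower), 7860 genes were called with the size factors of DESeq2, 7954 with its Wald test, 7866 without an expression filter, 7417 with at least 1 CPM in 2 libraries, 7875 without robust estimation, and, as alternatives chosen after seeing the data, 7502 with the offset for transcript GC and 6872 without chromosomes 1 and 15. A test against a 2-fold threshold, stricter by construction, called 3304 genes (1579 higher and 1725 lower). Leaving out each library in turn gave 4180 to 6952 calls (2019 to 3091 higher and 2031 to 3861 lower), with 6952 without WT library A, 5096 without WT library B, 4280 without clone C4 and 4180 without clone 5-3, each from fewer samples. The number of genes more than 2-fold apart between the clones was 1774, against 1766 with the size factors of DESeq2, 3939 without a filter, which adds low genes, and 1049 with the stricter filter, which removes them. The log2 fold change of Sox2, -0.01, became 0.023 without a filter and ranged from -0.63 without WT library B to 1.21 without WT library A, with 0.28 without clone 5-3. Without clone C4 those of Plagl1, Camk2a and Abcb1b turned to -0.28, -0.038 and -0.25, and without clone 5-3 they were 6.53, 1.75 and 1.45. Without a filter the calls of Cubn, Hnf4a, Nanog, Nnat, Enpep, Isg15, Col1a1, Col1a2, Cldn4, Cdh1, Fst, Fbln2, Kit and Grin2c were lost, with adjusted p from 0.0511 to 0.215. Calls lost when a library was left out are given in the report beside the genes. Such fits have 1 library in a group and called fewer genes in all. A lost call alone therefore does not tie a gene to the library left out. Values of genes that were not called also changed sign. Leaving out 1 library at a time gave log2 fold changes of -2.46 (without clone C4) to 5.57 for H19, -0.80 to 0.28 for Gata5, -0.76 to 3.46 for Nodal, -7.01 to 0.10 for Otx2, -1.04 to 1.69 for Hoxb1, -0.42 to 0.71 for Nid1, -0.21 to 0.53 for Foxa1 and -0.67 to 0.12 for H2-K1. With the GC offset Hspg2 was at -0.13, Nodal at -0.17 and Foxa1 at -0.16. No paired analysis was possible because the columns carry no replicate number that the labels tie to a sample. Depth limits low genes most in clone C4, where 3 counts are 0.205 CPM.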
